A study of Saccharomyces cerevisiae with 9 samples.

Results

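ETS 2 is the external transcribed spacer at the 3′ end of the yeast 35S precursor rRNA, the last stretch of the ribosomal DNA (rDNA) that RNA polymerase I (Pol I) transcribes before it terminates. The data described here are 201 positions of ETS 2, beside 6657 other positions of the same 35S repeat. They were chosen by coordinate alone, as all ETS 2 positions except the 10 nt next to 25S rRNA. Positions are numbered by their distance in nt from the last base of 25S, so the stretch runs from +11 to +211. The landmarks inside it were taken from the annotation column deposited with the values.

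Pol I occupancy was measured with NET-seq (native elongating transcript sequencing): Pol I is pulled down through an HA tag on its subunit Rpa135, and the last base of the attached RNA is mapped. The cultures were *Saccharomyces cerevisiae* harvested in 3 subphases of logarithmic growth, early log, mid log and late log, with 3 libraries each and 9 in all. Every culture was of the same strain, which is MATa with the tagged allele RPA135-(HA)3-(His)7::TRP1 and the markers can1-100, his3-11, leu2-3 with leu2-112, trp1-1, ura3-1 and ade2-1, and was grown in rich YPD medium at 30 °C. The subphases therefore differ in the time of harvest and not in genotype, and no untagged strain was analysed here. Values are RPM, reads per 1000000 reads of the same library on the repeat up to the terminator, so they are shares and carry no information on how much Pol I was engaged per cell.

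At this end of the rDNA the RNA of ETS 2 folds into a hairpin that the RNase III enzyme Rnt1 cuts on both sides of the stem, which separates the precursor from the polymerase still moving ahead. Downstream lies the terminator T1, followed by a site bound by the Myb-like proteins Reb1 and Nsi1, which act in Pol I termination. The assay reads the 3′ end of any RNA that comes down with Pol I, so an end left by cutting and the end of a growing RNA cannot be told apart in these values.

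The sequence is shown because every landmark below is read from it. It lies at chrXII:460712-460912 on the minus strand of the R64 assembly, downstream of the 25S gene RDN25-2 within the 35S gene RDN37-2, and 0 of its bases differed from the RefSeq genome. The assembly holds 2 exact copies of it, the other at chrXII:451575-451775, and reads from the copies look the same. Capitals mark the residues annotated for Rnt1 cleavage, the single base annotated as T1, and the Reb1/Nsi1 site, in that order.
ETS 2 from +11 to +211: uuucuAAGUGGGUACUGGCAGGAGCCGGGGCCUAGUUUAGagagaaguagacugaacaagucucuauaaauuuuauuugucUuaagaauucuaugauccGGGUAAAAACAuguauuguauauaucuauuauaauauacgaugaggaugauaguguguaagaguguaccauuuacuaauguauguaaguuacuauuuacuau

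The Rnt1 residues form 1 unbroken run of 35 nt, from +16 to +50. T1 is the base at +92, and the Reb1/Nsi1 site covers +110 to +120. Of the 201 bases, 67.2% were A or U, against 40% of the Rnt1 residues and 74.7% of the 91 nt behind the Reb1/Nsi1 site. Folding 55 nt around the Rnt1 residues (RNAfold) gave 1 hairpin of 23 base pairs with a predicted energy of -28.2 kcal/mol. It is shown because the highest signal of ETS 2 lies at its stem. Capitals mark the loop, +30 to +33, which has the form AGNN that Rnt1 is known to bind.
Hairpin from +6 to +58 (chrXII:460865-460917, minus strand): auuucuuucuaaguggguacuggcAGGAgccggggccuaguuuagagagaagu

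In the predicted fold the base at +15, the last before the annotated residues, pairs with +49, and the base at +14 pairs with +50, the last annotated residue. The letters CGGGUAA, searched on both strands, occurred once in ETS 2, at +109 to +115 and thus across the start of the Reb1/Nsi1 site, and in 1.24% of 60477 windows of 201 nt of the assembly. One more sequence is shown for the terminator. Capitals mark the C at +91 and the U at +92, where the signal around T1 was highest.
Around T1 from +72 to +112 (chrXII:460811-460851, minus strand): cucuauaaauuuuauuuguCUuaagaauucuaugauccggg

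Depth was uneven. The libraries held between 350940.0 and 7307420.5 reads on the repeat, a ratio of 20.8, and between 3251 and 34559 reads over the stretch described. Early log replicate 3 was the shallowest, with 97 of 201 positions at 0, where a count of 0 allows up to 8.55 RPM. All mid log libraries came from a sequencing run of their own, so in every comparison with mid log the run and the subphase cannot be told apart. Early log replicate 1 shared its run with the late log libraries and stood below the other early log libraries in 4 of 5 windows of ETS 2. Early log replicates 2 and 3 came from another run that held no other subphase. Run and subphase are therefore only partly separated between early and late log, through early log replicate 1 alone. Mid log replicate 1 stood above the other mid log libraries in every window behind the first Rnt1 residue.

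The density of 3′ ends decreased from each window of ETS 2 to the next in all 9 libraries, and the largest of these steps lay at the first Rnt1 residue in all 9. Before the Rnt1 residues, at +11 to +15, the density averaged 934 ± 610 RPM per nt at early log, 211 ± 31.9 at mid log and 701 ± 89.6 at late log (SD, n = 3 each). Over the 35 Rnt1 residues it averaged 24.9 ± 9.56, 13.5 ± 7.45 and 9.92 ± 1.70 RPM per nt in early, mid and late log. From there to T1 it was 14.6 ± 3.62, 5.62 ± 3.78 and 7.11 ± 1.24 RPM per nt in the same order. The gradient was thus shared by the libraries, while the levels differed.

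Between T1 and the end of the Reb1/Nsi1 site the density averaged 3.82 ± 0.570 RPM per nt at early log, 1.68 ± 1.17 at mid log and 1.43 ± 0.0314 at late log (SD, n = 3 each). In the last 91 nt it averaged 1.13 ± 0.204, 0.668 ± 0.340 and 0.685 ± 0.0788 RPM per nt in early, mid and late log. These last values rest on as few as 41 reads, in early log replicate 3.

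**Figure D1:**
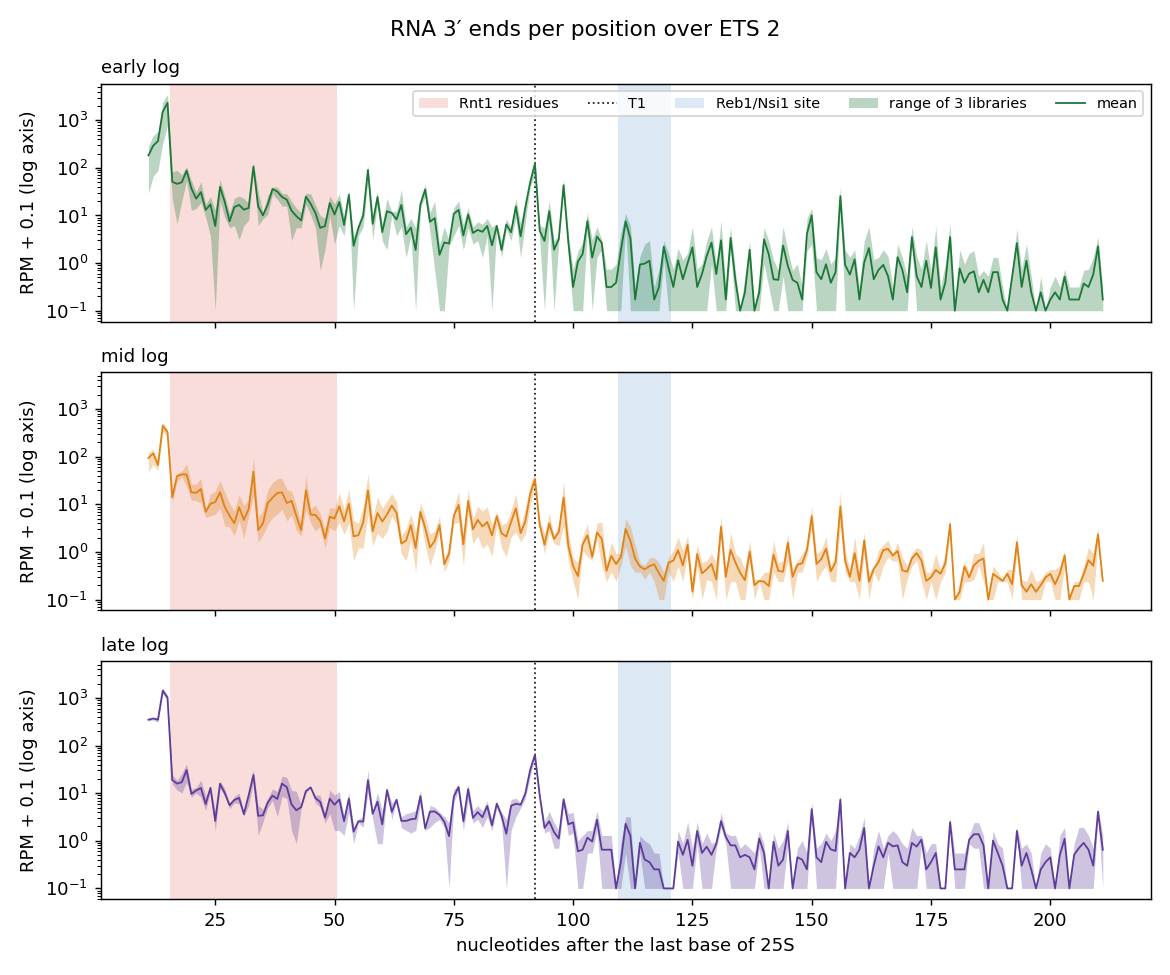
RNA 3′ ends per position over ETS 2 in early, mid and late log, plotted as RPM + 0.1 on a log axis against nucleotides after 25S; lines are means and shading is the range of 3 libraries. In each subphase the highest values lie just before the Rnt1 residues, another group of high values lies at T1, and the signal at and past the Reb1/Nsi1 site is low.

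**Figure D2:**
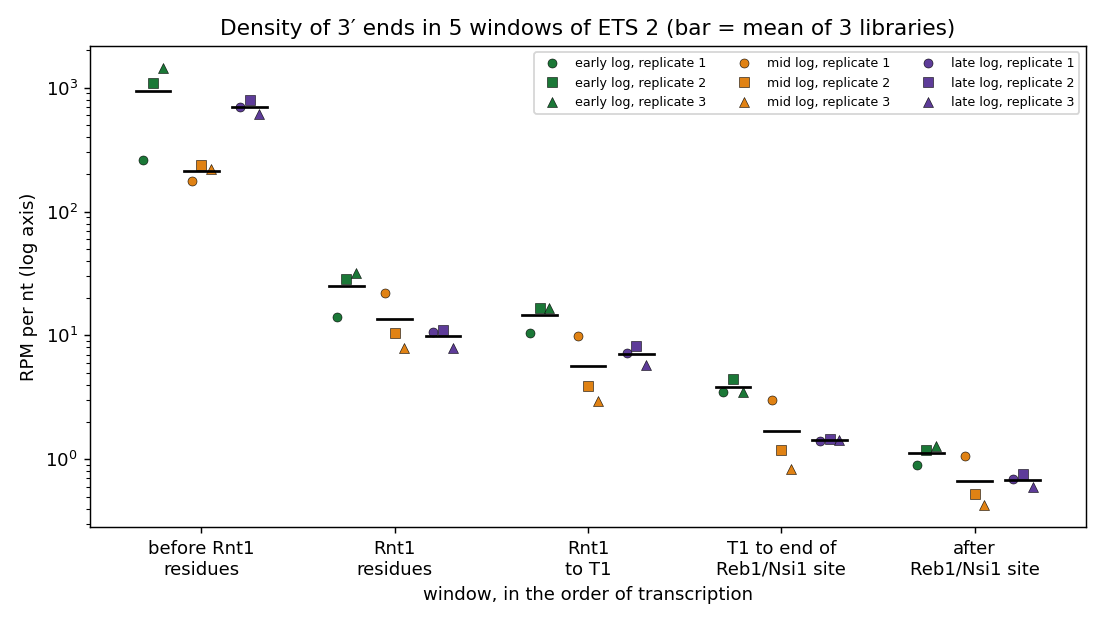
Density of 3′ ends (RPM per nt, log axis) in 5 windows of ETS 2, with a point per library and a bar at the mean of each subphase. The mean densities were 934, 211 and 701 RPM per nt before the Rnt1 residues and 1.13, 0.668 and 0.685 RPM per nt in the last window in early, mid and late log.

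Whether ETS 2 occupancy as a whole differed between subphases was asked through its share of 35S reads. The share was 0.240%, 0.742% and 0.926% in the early log libraries, 0.224%, 0.180% and 0.157% in the mid log libraries, and 0.370%, 0.482% and 0.424% in the late log libraries. Mid log was lowest, and its libraries overlapped neither those of early log nor those of late log. Over the 3 subphases the exact permutation test of the F statistic gave p = 0.075, and 0.128 after adjustment over the 14 measures tested in this way. For a pair of subphases the smallest p that 3 against 3 libraries allow is 0.10, which both comparisons with mid log reached (exact permutation test, two-sided). Late log averaged 0.425% and early log 0.636%, with overlapping libraries (log2 difference -0.38, exact p = 0.60). With 1 library left out in turn the late minus early difference ranged from -0.97 without early log replicate 1 to 0.0028 without early log replicate 3, and the exact p over the 3 subphases from 0.00357 without early log replicate 1 to 0.157 without mid log replicate 3.

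The choice of denominator turned the order of early and late log. Relative to the reads in the interiors of the 4 spacers rather than to all 35S reads, the late minus early difference of the whole stretch was 1.35 on the log2 scale and the mid minus early difference was -0.077. ETS 1 was the largest part of the spacer reads, at 3.86%, 1.54% and 0.706% of 35S reads in early, mid and late log. Ratios taken within ETS 2 do not depend on either denominator.

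The 5 nt before the Rnt1 residues held the largest share of the signal of any window in each library, 39.1% to 83.3% of the reads of the stretch. This share averaged 68.6% ± 13.0 at early log, 58.5% ± 16.9 at mid log and 82.5% ± 0.889 at late log (SD, n = 3 each). As a share of 35S reads the window held 0.467% ± 0.305, 0.106% ± 0.0160 and 0.351% ± 0.0448 in early, mid and late log. Mid log lay below both other subphases without overlap, and early and late log overlapped (exact permutation test of F, p = 0.0821, adjusted 0.128). This order depended on the denominator. Relative to spacer reads, +11 to +14 were higher in late than in early log, by 2.04 to 3.19 on the log2 scale (limma adjusted p 1.88e-05 to 0.00158). Between mid and early log no base of the window was then called (limma adjusted p 0.303 to 0.887). Setting this window apart from the residues themselves was decided after the annotation had shown 1 run rather than separate sites. As 1 window of 40 nt, both together gave an exact p of 0.111 (adjusted 0.146).

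The highest bases of this window were its last 2. The U at +15, which precedes the first annotated residue, held 781, 2718 and 3483 RPM in the early log libraries, 380, 344 and 263 RPM in the mid log libraries, and 1015, 1148 and 879 RPM in the late log libraries. The C at +14 held 327, 1785 and 2400 RPM in early log, 330, 514 and 507 RPM in mid log, and 1393, 1655 and 1222 RPM in late log. The very next base downstream, the A at +16, averaged 50.8 ± 30.6 RPM at early log, 13.9 ± 4.08 at mid log and 18.7 ± 5.07 at late log. The step from +15 to +16 was thus the edge of the Rnt1 run, seen at the same base in every subphase.

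The balance between these bases differed between subphases. The ratio of +15 over +14 was 1.79 ± 0.521 at early log, 0.779 ± 0.331 at mid log and 0.714 ± 0.0180 at late log (SD, n = 3 each). The highest library of mid and late log stood at 1.15 and the lowest of early log at 1.45, so early log did not overlap them, while mid and late log overlapped. The highest position of ETS 2 was accordingly +15 in 4 libraries, the 3 of early log and mid log replicate 1, and +14 in the other 5. In the 1 run that held both subphases, the late log libraries were at 0.694 to 0.729 and early log replicate 1 at 2.39. This ratio was chosen after its values had been seen and carries no test.

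**Figure D3:**
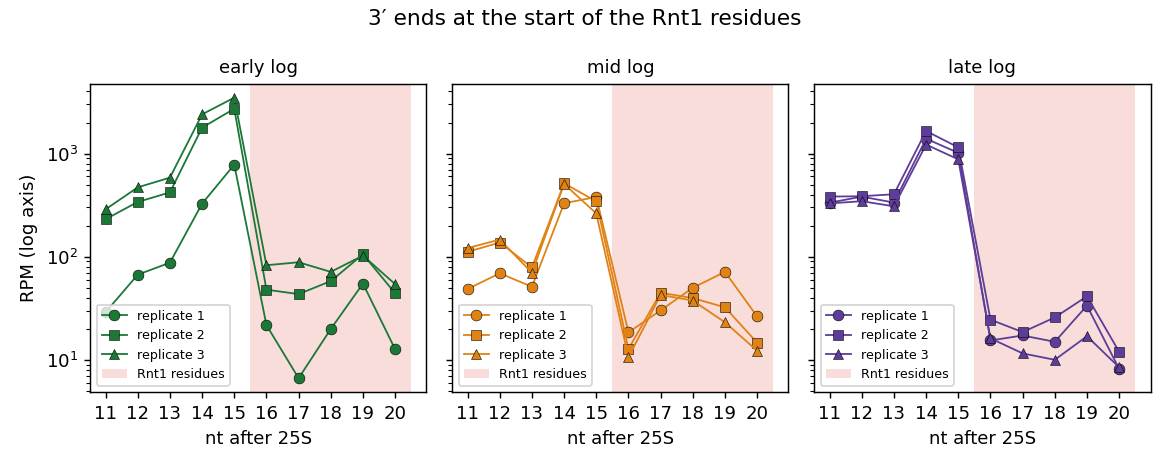
RPM (log axis) at 11 to 20 nt after 25S in each library of early, mid and late log; the shaded positions are the first Rnt1 residues. The signal drops at the first residue in all 9 libraries, and the higher of the last 2 positions before it is the downstream one in early log and the upstream one in late log.

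The other 3 bases of this window, +11 to +13, averaged 183 ± 136, 292 ± 206 and 364 ± 253 RPM in early log, 93.8 ± 39.4, 118 ± 42.3 and 66.6 ± 14.1 RPM in mid log, and 349 ± 29.7, 371 ± 22.6 and 349 ± 49.0 RPM in late log. They lie at the edge of the 10 nt left out beside 25S. The base at +10, just outside, held 130 ± 96.2, 118 ± 50.4 and 420 ± 36.4 RPM in early, mid and late log, and the base at +11, just inside, the values given above.

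Within the Rnt1 residues the signal per nt was lower than before them in all 9 libraries and was spread over many bases. Their share of 35S reads was 0.0871% ± 0.0335 at early log, 0.0472% ± 0.0261 at mid log and 0.0347% ± 0.00595 at late log (exact permutation test of F, p = 0.0786, adjusted 0.128). Late log lay below early log without overlap, with a log2 difference of -1.26 as a share of 35S reads, whereas relative to spacer reads the difference was 0.47. The mid log libraries overlapped both. On the mean of all 9 libraries the highest residues were +33, the last base of the hairpin loop, and +19, in the 5′ arm of the stem. In mid log replicates 2 and 3 the base at +17 was above both, at 44.8 and 42.6 RPM.

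The loop base at +33 held 88.7, 103 and 128 RPM in the early log libraries, 96.9, 32.4 and 15.2 RPM in the mid log libraries, and 24.0, 31.1 and 16.9 RPM in the late log libraries. Early and late log did not overlap, and mid log spanned both, with replicate 1 at the level of early log. The base at +19 held 87.7 ± 28.4 RPM at early log, 42.2 ± 25.5 at mid log and 30.6 ± 12.5 at late log. Both bases were among the 10 highest of ETS 2 in all 9 libraries, as were +12, +13, +14, +15 and T1 itself.

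Between the Rnt1 residues and T1, a stretch of 42 nt, the share of 35S reads was 0.0438%, 0.0704% and 0.0698% in the early log libraries, 0.0418%, 0.0165% and 0.0125% in the mid log libraries, and 0.0305%, 0.0347% and 0.0243% in the late log libraries. Early log stood above mid and late log without overlap, and mid and late log overlapped. For the whole 42 nt the exact permutation test of F gave p = 0.0571 (adjusted 0.128). With 1 library left out in turn this p ranged from 0.00357, without mid log replicate 1, to 0.132. The late minus early log2 difference was -1.02 as a share of 35S reads and 0.71 relative to spacer reads, so the direction against early log is set by the denominator. The density of this stretch over that of the Rnt1 residues, a ratio within ETS 2 that was added with the data in view and carries no test, was 0.616 ± 0.114 at early log, 0.400 ± 0.0461 at mid log and 0.717 ± 0.0344 at late log (SD, n = 3 each). Mid log was below both other subphases without overlap, and early and late log overlapped.

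In this stretch +57 and +69 were described besides T1. The base at +57, in the 3′ arm of the predicted stem, held 53.1, 104 and 114 RPM in early log, 42.5, 9.99 and 5.99 RPM in mid log, and 15.4, 30.5 and 10.01 RPM in late log. The base at +69, behind the hairpin, held 45.9, 24.9 and 34.2 RPM in early log, 5.61, 2.46 and 1.25 RPM in mid log, and 1.81, 1.80 and 1.54 RPM in late log. At +69 every early log library was above every library of the other subphases, with the early log library of the late log run the highest of all.

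At T1 itself the 3′ ends were highest on a pair of bases. The base annotated as T1, +92, held 73.6, 142 and 151 RPM in the early log libraries, 45.7, 31.2 and 23.5 RPM in the mid log libraries, and 63.5, 73.1 and 55.4 RPM in the late log libraries. The 3 subphases did not overlap at this base, with early log highest and mid log lowest, although early log replicate 1 and the highest late log library were close. As a share of 35S reads, T1 gave the smallest p the exact permutation test of F allows, 0.00357, which was 0.05 after adjustment over the 14 measures. Relative to spacer reads the exact permutation test gave p = 0.0286 with a late minus early log2 difference of 0.85, so here too the order of early and late log turned with the denominator. Late log was above mid log under both denominators, but after rescaling to the spacers the difference at this base did not pass (log2 difference 1.20, limma adjusted p = 0.561).

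The peak at T1 was sharp in every library. The pair +91 and +92 exceeded the mean of the 10 nt before it by a factor of 13.3 ± 0.631 at early log, 7.40 ± 1.99 at mid log and 9.93 ± 0.455 at late log (SD, n = 3 each), with a range over all libraries of 5.15 to 14.0. Early log was highest without overlap, also in the run shared with late log, where the late log libraries had factors of 9.53 to 10.4 and the early log library 14.0. The pair took 27.7% ± 1.76 of the reads from the Rnt1 residues to T1 at early log, 23.6% ± 5.57 at mid log and 31.8% ± 1.83 at late log. By this share late log was highest without overlap, so the order of early and late log differed between the measures of the peak. These ratios lie within ETS 2 of 1 library and do not depend on the denominator. They were chosen with their values known and are given without a test.

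**Figure D4:**
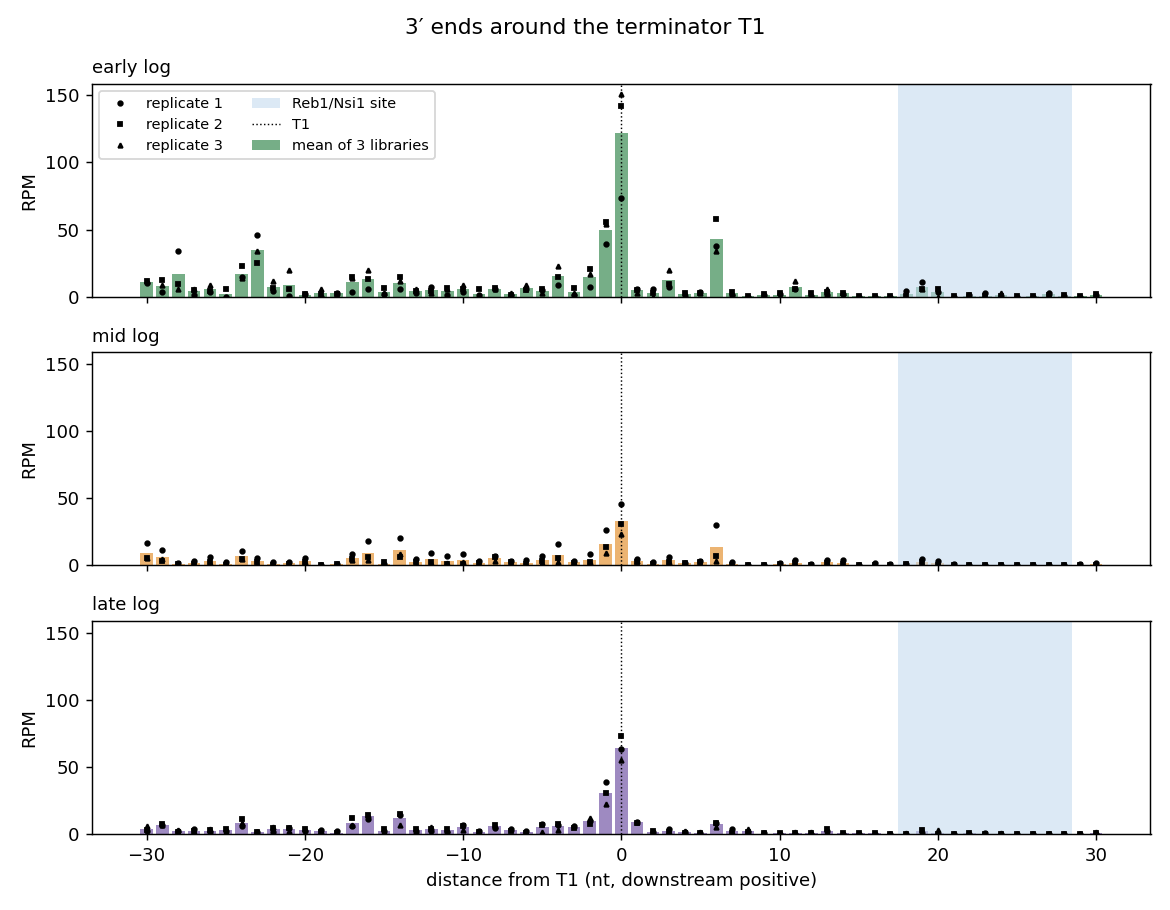
RPM per position from 30 nt before to 30 nt after T1 in early, mid and late log; bars are means of 3 libraries, points are libraries, and shading marks the Reb1/Nsi1 site. The highest base is T1 in every subphase, at a mean of 122, 33.5 and 64.0 RPM in early, mid and late log.

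Past T1 the signal was lower but not 0. Of all reads behind the Rnt1 residues, 25.8% ± 2.97 lay past T1 at early log, 32.1% ± 1.64 at mid log and 25.7% ± 2.07 at late log (SD, n = 3 each). The 119 nt past T1 had 0.123 ± 0.0194 of the density of the 42 nt before it at early log, 0.167 ± 0.0124 at mid log and 0.122 ± 0.0134 at late log. Mid log was above both other subphases without overlap, and early and late log overlapped. This ratio was computed after the peak before the Rnt1 residues had been seen to dominate the count up to T1, and carries no test.

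Counted from +11, so with that peak in the denominator, the ratio of the density after T1 over that before T1 was 0.0315 ± 0.0213 at early log, 0.0403 ± 0.0174 at mid log and 0.0171 ± 0.00103 at late log. The exact permutation test of F gave p = 0.136 (adjusted 0.146). Late log was below mid log without overlap, with a log2 difference of -1.16, which was -0.13 when 20 nt rather than 10 next to 25S were left out. Counted from behind the Rnt1 residues, as above, it was -0.45, with late log still below mid log without overlap.

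From T1 to the end of the Reb1/Nsi1 site the share of 35S reads was 0.0107% ± 0.00160 at early log, 0.00470% ± 0.00328 at mid log and 0.00399% ± 0.0000879 at late log (exact permutation test of F, p = 0.0643, adjusted 0.128). The late minus early log2 difference was -1.41 as a share of 35S reads and 0.32 relative to spacer reads. Mid minus early was -1.40 and 0.092 in the same order, so both directions turned with the denominator. With the median per position the differences were 0.24 and 0.31. Early log replicate 3 held no read at 16 of these 28 positions, so its median was 0 and a small constant was added to every median. The median values therefore depend on depth. On the mean of all 9 libraries the highest base was +98, 6 nt past T1, while in late log the base at +93, named after its values were seen, averaged 8.90 RPM and +98 7.31 RPM. The base at +98 held 37.4, 57.8 and 34.2 RPM in the early log libraries, 30.5, 7.25 and 3.48 RPM in the mid log libraries, and 8.16, 8.39 and 5.39 RPM in the late log libraries. Early log was highest without overlap, and mid log replicate 1 stood apart from the other mid log libraries.

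The Reb1/Nsi1 site itself carried little signal. Its 11 bases summed to 18.3 ± 6.97 RPM at early log, 8.33 ± 4.79 at mid log and 5.28 ± 2.81 at late log (exact permutation test of F, p = 0.0786, adjusted 0.128). On this scale late log was below early log without overlap (log2 difference -1.84, exact p = 0.10, the smallest a pair allows), and mid log overlapped both. The window that ends with this site went from -1.41 to 0.32 relative to spacer reads, so the size of this difference is set by the denominator too. Between 4 and 84 reads per library lay behind these sums. In the last 91 nt, +156, 64 nt past T1 and named after its values were seen, was the highest base on average, with 19.9, 16.3 and 39.9 RPM in early log, 17.8, 5.20 and 3.62 RPM in mid log, and 5.89, 6.59 and 9.24 RPM in late log. The share of this last window was 0.0102% ± 0.00186, 0.00608% ± 0.00309 and 0.00623% ± 0.000717 in early, mid and late log (exact p = 0.132, adjusted 0.146). Its late minus early log2 difference was -0.71 as a share of 35S reads, 1.02 relative to spacer reads (exact permutation p over the 3 subphases = 0.0429) and 0.79 with the median per position. The median depends on depth here too, since early log replicates 1 and 3 held no read at 50 and 76 of the 91 positions.

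ETS 2 was also set against ETS 1, the spacer at the start of the repeat, because polymerases that begin transcription pass ETS 1 first and ETS 2 last. The density from +11 to T1 over that of ETS 1 was 0.742, 1.17 and 1.95 in the early log libraries, 0.518, 2.07 and 2.26 in the mid log libraries, and 4.95, 4.40 and 5.88 in the late log libraries. Late log was above both other subphases without overlap. The means were 1.29 ± 0.612, 1.61 ± 0.954 and 5.08 ± 0.746 in early, mid and late log (SD, n = 3 each). The exact permutation test of F gave p = 0.0607 (adjusted 0.128). With the count starting behind the Rnt1 residues the ratio was 0.268 ± 0.0401 at early log, 0.319 ± 0.0993 at mid log and 0.707 ± 0.0711 at late log, and late log was again highest without overlap.

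The size of this difference depended on the spacer chosen for comparison. Late minus early was 2.08 on the log2 scale against ETS 1, 0.69 against ITS 1 and 1.10 against ITS 2. The density of ETS 1 itself averaged 56.0 ± 19.2 RPM per nt at early log, 22.3 ± 22.8 at mid log and 10.2 ± 2.78 at late log.

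Single positions were tested with limma on log2(RPM + 1) across the whole repeat, with Benjamini-Hochberg adjustment over all positions tested and a threshold of 0.05. Fold changes on this scale understate those of low positions. A position entered at a mean RPM of 1 or more, so 118, 104 and 115 of the 201 positions were tested in mid against early, late against mid and late against early log.

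Of the 118 positions tested between mid and early log, 7 were lower in mid log and 0 were higher. Over the repeat 19.2% of positions were called, 6.48% higher and 12.7% lower. At an unadjusted p under 0.05 there were 22 ETS 2 positions, for which the share over the repeat was not computed. With edgeR on the recovered reads 5 were called, all lower. Over the repeat edgeR called 622 positions higher and 343 lower of 6748, so the commoner direction was the reverse of that with limma. The positions that limma called were +13, +15, +57, +64, +69 and both bases of the T1 peak, +91 and +92. Of these, +64 was named after its values were seen. The base at +69 fell most, with a mean of 3.11 RPM in mid log and 34.99 RPM in early log (log2 difference -3.23 ± 0.556, SE; limma adjusted p = 0.0124). T1 was at -1.82 ± 0.362 (limma adjusted p = 0.0173). No ETS 2 position was called without mid log replicate 2 or replicate 3, where 3 and 10 of 6748 were called over the repeat. Without early log replicate 2 or replicate 3, 1 was called, against 569 and 536 over the repeat. Without mid log replicate 1, 28 were called, against 1922 over the repeat.

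Of the 104 positions tested between late and mid log, 6 were higher in late log and 3 lower, against 38.8% called over the repeat, 16.6% higher and 22.2% lower. The higher ones were the 5 bases before the Rnt1 residues and T1. The base at +13 had the smallest adjusted p, with 349 RPM in late log and 66.6 RPM in mid log (log2 difference 2.39 ± 0.170, SE; limma adjusted p = 6.47e-05). T1 was higher by 0.96 ± 0.251 (limma adjusted p = 0.0141). The lower ones, +17, +18 and +25, all lay in the 5′ arm of the hairpin, and of these +17 and +25 were named after their values were seen. Without mid log replicate 1, 24 positions were higher and 3 lower, against 1409 and 1576 of 6722 over the repeat.

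Of the 115 positions tested between late and early log, 25 were lower in late log and 0 higher, against 48.2% called over the repeat, 12.5% higher and 35.7% lower. The 5 bases before the Rnt1 residues were not among them. The base at +69 had the lowest adjusted p, with 1.72 RPM in late log and 34.99 RPM in early log (log2 difference -3.69 ± 0.411, SE; limma adjusted p = 0.000156). The loop base at +33 had a log2 difference of -2.13 ± 0.280 (limma adjusted p = 0.000375), +98 past T1 one of -2.39 ± 0.353 (limma adjusted p = 0.000678), +37 one of -1.94 and +57 one of -2.28. T1 was at -0.86 ± 0.282 (limma adjusted p = 0.0291). The median log2 difference was -0.75 over the 115 positions and -0.44 over all positions tested. Leaving out 1 library in turn gave 11 to 42 lower positions, with 42 without early log replicate 1. Over the repeat 3087 of 6746 positions were lower without early log replicate 1, and 1536 without late log replicate 3.

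Rescaling the values to the reads in the spacer interiors changed these splits, and turned those against early log. It moved the median log2 difference of the whole repeat to 1.18 for mid against early log, 0.09 for late against mid log and 1.24 for late against early log. Of the ETS 2 positions, 13 were then higher and 3 lower in mid than in early log. Over the repeat 12.3% were called, 752 higher and 78 lower of 6742. In late against mid log 5 were higher and 1 lower, of 132 ETS 2 positions tested. The repeat had 1.71% called, 10 higher and 106 lower of 6764, so ETS 2 held 5 of the 10 higher calls. In late against early log 32 were higher and 1 lower. The repeat had 67.3% called, 4316 higher and 228 lower of 6754. The numbers of ETS 2 positions tested differed from those before rescaling. On the deposited RPM the 5 bases before the Rnt1 residues and T1 had been called higher in late than in mid log. After rescaling none of these was called (limma adjusted p 0.0515 to 0.561), and the 5 called higher were other positions. Called lower under both scalings were, among the positions the text names, +64 in mid against early log, +25 in late against mid log, and +69 in both comparisons with early log. Before rescaling, +64 held 34.4, 9.67 and 5.70 RPM in early log and 2.14, 0.821 and 1.25 RPM in mid log. The base at +25 held 19.0, 7.94 and 6.13 RPM in mid log and 1.81, 4.19 and 1.54 RPM in late log. In replicate 3 of early log at +64 and of late log at +25, the value lay below what a count of 0 allows, 8.55 and 2.31 RPM. After rescaling, the log2 difference was -1.45 at +64 (limma adjusted p = 0.0171) and -1.65 at +25 (limma adjusted p = 0.017). At +69 it was -2.0 in mid log (limma adjusted p = 0.00207) and -2.29 in late log (limma adjusted p = 0.000552). T1 was 0.84 higher in late than in early log after rescaling (limma adjusted p = 0.0286). The bases +11 to +14 were higher in late than in early log after rescaling, by 3.19, 2.47, 2.04 and 2.06.

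**Figure D5:**
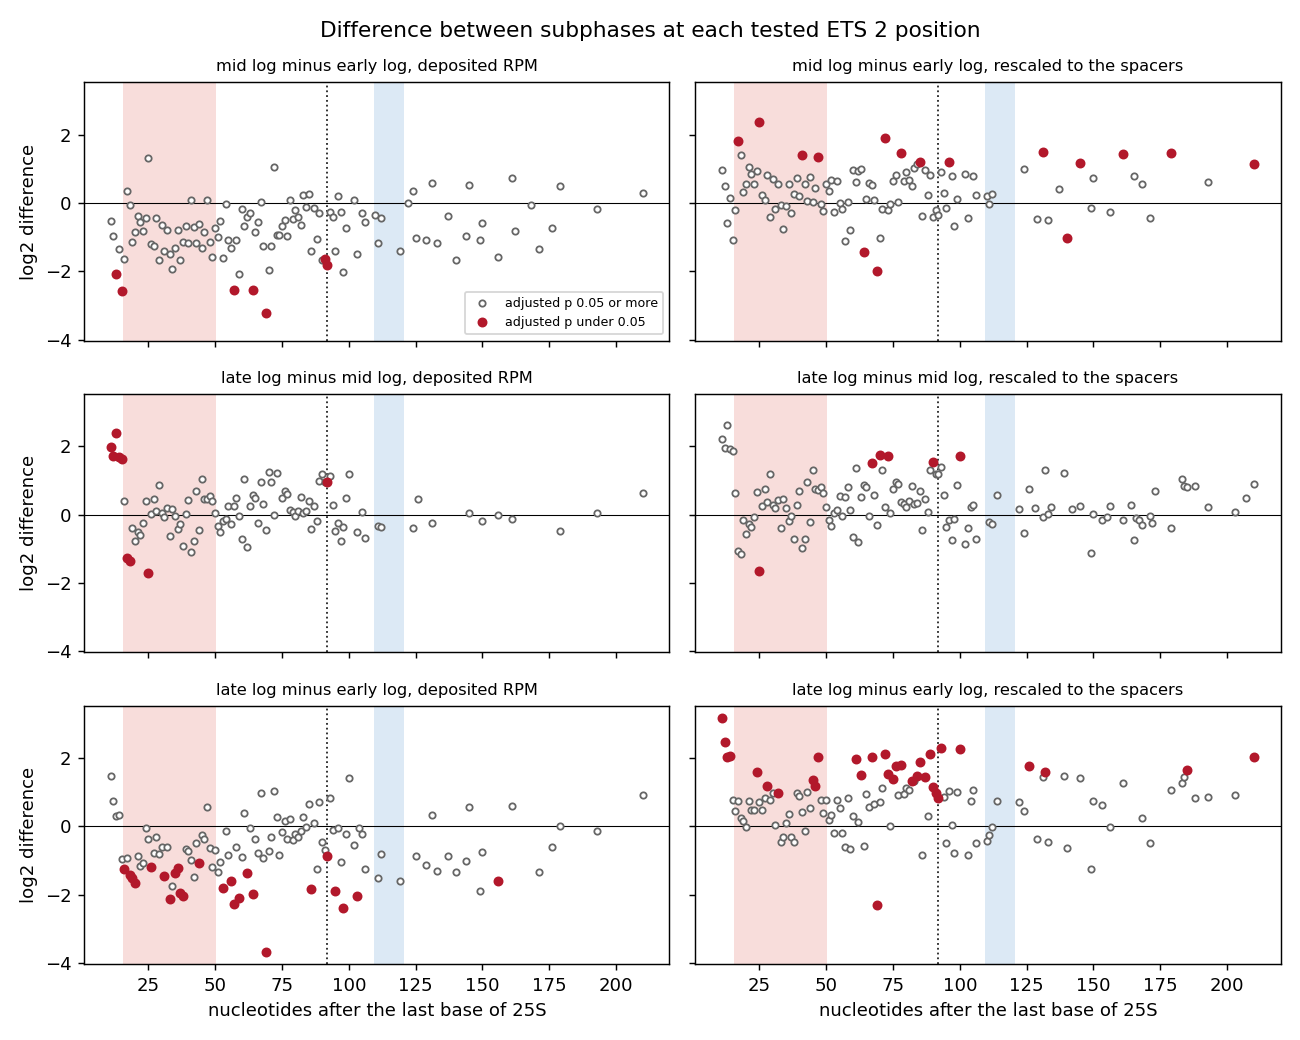
Log2 difference (RPM + 1) of each tested ETS 2 position against nucleotides after 25S, for mid minus early, late minus mid and late minus early log, on the deposited RPM (left) and after rescaling to the spacers (right); filled points have a limma adjusted p under 0.05. Late minus early has 25 filled points below 0 on the left, and 32 above and 1 below 0 on the right, the last being the base at +69.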

How the data were processed

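The authors collapsed duplicate reads (Fqtrim), trimmed adapters (Cutadapt), aligned to the R64 assembly with STAR 2.7.3a, sorted with SAMtools 1.12 and took the 5′ end of each read on its strand with BEDTools, per the methods of the paper. The deposited values are RPM, each library scaled by the authors to 1000000 up to T1. The 3 deposited tables each pair 2 subphases and repeat every library once, with identical values. Columns with the authors' mean changes, ratios and p-values were not used. The sample columns carry generic names, and the subphase of a column follows from the table named in the description of each sample.

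Dividing by the smallest value of a library gave whole reads at 99.9% to 100% of positions (tolerance 0.01). Shares are percent of a library's values over the whole repeat. Windows were compared on log2 values with exact two-sided permutation tests, over 20 assignments for a pair and 1680 for the F statistic of 3 subphases. Positions were tested with limma 3.58.1 (R 4.3.3, trend) on log2(RPM + 1), mean of at least 1 RPM. Alternatives were edgeR 4.0.16 and DESeq2 1.42.0 on recovered reads, other pseudocounts, filters, denominators and windows, and each library left out. The fold was predicted with RNAfold 2.7.2. On simulated reads with the real depths, limma recovered 34.4% to 56.4% of changes of 1 on the log2 scale and 96.9% to 100% of changes of 2. The simulation used a fixed spread between replicates and placed changes only at positions of higher mean RPM. Early and mid log libraries spread more than that in several windows, so these percentages do not carry over to ETS 2.

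Named positions are the annotated features, the 10 highest on average, and up to 5 of lowest adjusted p per comparison. The windows, lists and measures were chosen with earlier results of these data known. The split of the first window at the first Rnt1 residue followed from the annotation column. Intervals and floors cover counting error only.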

Additional observations from a re-analysis of the deposited data

Results flagged for a closer look

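The 10 nt between 25S and +11 were left out of every comparison, and on average they held more signal per nt than any window behind the first Rnt1 residue. Their mean was 138 RPM per nt at early log, 412 at mid log and 694 at late log (3 libraries each), an order that differed from that of the 5 nt before the Rnt1 residues, where mid log was lowest. The libraries ranged from 116 to 174 RPM per nt in early log, from 320 to 472 in mid log and from 574 to 758 in late log, without overlap. The difference was not tested. Whether these ends belong to 25S rRNA or to a growing transcript was not tested.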

How the results depend on the processing

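Values are exact permutation p over the 3 subphases or log2 differences, and the cause of a change was not tested. With spacer reads as denominator, p was 0.0321 from the Rnt1 residues to T1, 0.496 from T1 to the Reb1/Nsi1 site, 0.0429 behind it, 0.114 for the Rnt1 residues and 0.0286 for T1. Late minus early was then 1.35 for the whole stretch and, in the same order, 0.71, 0.32, 1.02, 0.47 and 0.85, and mid minus early was -0.077 for the whole stretch and 0.092 from T1 to the Reb1/Nsi1 site. With the median per position, late minus mid was 0.34 for the whole stretch and -0.0065 for the 40 nt up to the last Rnt1 residue. From T1 to the Reb1/Nsi1 site p was then 0.986, mid minus early 0.31 and late minus early 0.24, behind the site p was 0.671 and late minus early 0.79, and for the after over before T1 ratio late minus early was 0.60. Past T1 some medians were 0, and a small constant was then added to every median. With 20 nt next to 25S left out, late minus mid was 0.19 for the whole stretch, -0.086 for the 40 nt and -0.13 for the T1 ratio, which was -0.45 when counted from behind the Rnt1 residues. For ETS 2 over ETS 1, p was 0.0107 with 20 nt left out, 0.0286 with the median, 0.0429 without positions within 2 nt of a feature and 0.0214 counted from behind the Rnt1 residues. Late minus early was 1.33 for it with 20 nt left out, 0.69 over ITS 1 and 1.10 over ITS 2.

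Of position calls, rescaling to the spacers gave 13 higher and 3 lower in mid than early log, 1 lower in late than mid log, and 32 higher and 1 lower in late than early log. In the same order, the repeat had 752 higher and 78 lower of 6742, 106 lower of 6764, and 4316 higher and 228 lower of 6754. A fit of all 9 libraries gave 19 lower in mid than early log and 0 lower in late than mid log. Over the repeat that fit gave 1443 lower of 6748 and 1001 lower of 6722. In late against early log, edgeR called 1 higher and 13 lower, and DESeq2 14 lower. Of 6746 positions over the repeat, edgeR called 1479 higher and 1495 lower, and DESeq2 1459 higher and 1415 lower. The main limma test called 840 higher and 2410 lower there, so its excess of lower calls over the repeat depended on the method. After rescaling, late minus early was 0.25 at +18, 0.17 at +19 and 0.84 at T1. With 1 library left out it ranged from -0.51 to 0.85 at +13 and from -0.55 to 0.89 at +14, both lowest without early log replicate 1.

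With 1 library left out, exact p ranged from 0.00357 to 0.157 for the whole stretch, 0.00357 to 0.182 for the 40 nt and 0.0357 to 0.268 for the T1 ratio, lowest without early log replicate 1. It ranged from 0.00357 to 0.132 between the Rnt1 residues and T1, 0.00357 to 0.136 from T1 to the Reb1/Nsi1 site, 0.00714 to 0.296 behind it and 0.00714 to 0.143 for ETS 2 over ETS 1, lowest without mid log replicate 1. Without mid log replicate 3 it was 0.0286 from T1 to the Reb1/Nsi1 site. Calls ranged from 0 to 28 lower in mid than early log, 5 to 24 higher and 2 to 3 lower in late than mid log, and 0 to 1 higher and 11 to 42 lower in late than early log. In the same order, calls over the repeat ranged from 0 to 1481, 859 to 1409, 1050 to 1576, 555 to 971 and 1536 to 3087.

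Replicate numbers did not pair the samples, since same-number correlations ran from -0.468 to 0.359 with 3 of 9 above 0.1. With the replicate block, exact p was 0.111 for the whole stretch, 0.0833 from the Rnt1 residues to T1 and 0.0278 for T1. With this block limma called 3 lower positions in mid than early log and 1 higher in late than early log. Over the repeat it called 212 lower of 6748 and 859 higher of 6746. Depth limits the positions past T1, many of which held no read in early log replicate 3.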
